A study of Mus musculus with 108 samples.

Results

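The genes described here move sodium across the kidney tubule or regulate that movement: Scnn1a, Scnn1b and Scnn1g, the subunits of the epithelial sodium channel; Slc12a1, Slc12a3, Slc9a3 and Slc34a1, sodium-coupled transporters; Wnk1 and Wnk4, kinases; and Nr3c2, the mineralocorticoid receptor. They were taken by symbol from a table of read counts, where all 10 of the 10 were found among 55416 genes. RNA of kidney, liver and WAT (white adipose tissue) was sequenced. The mice were C57BL/J males aged 8 to 12 weeks, with free access to food and under 12 h of light and 12 h of darkness. One group of mice carried the label Bmal1-flox and the other Bmal1-iKO, written flox and iKO here. Bmal1 (gene symbol Arntl) is a transcription factor of the circadian clock, and the title of the study names the intestine as the site of the clock of interest. The labels do not say which cells lost the gene, by which Cre, or whether the flox mice lacked any Cre. Tissue was collected at zeitgeber time (ZT, in hours from lights on) 2, 6, 10, 14, 18 and 22, with 3 libraries for each tissue, genotype and time and so 36 from kidney. No label says whether the 3 libraries of a group came from separate animals. A p-value here therefore reflects only how these libraries spread, possibly for technical reasons.

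The tubule takes back filtered sodium in successive segments. In the proximal tubule Slc9a3 (NHE3) exchanges sodium for protons and Slc34a1 carries it with phosphate, in the thick ascending limb Slc12a1 (NKCC2) carries it with potassium and chloride, in the distal convoluted tubule Slc12a3 (NCC) carries it with chloride, and in the connecting tubule and collecting duct it enters through the channel. WNK kinases act through the kinases Stk39 and Oxsr1 on NCC and NKCC2, and the mineralocorticoid receptor, bound by aldosterone, raises channel activity. Sodium excretion in urine follows the time of day, and kidney cells carry their own clock.

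All 10 genes are protein coding. On GRCm38 (GENCODE M21, matched by gene identifier) Scnn1b and Scnn1g lie near each other on chromosome 7, from 121865038 to 121918514 and from 121734479 to 121768475, both on the plus strand. Scnn1a lies on chromosome 6 from 125320659 to 125344943, Slc12a1 on chromosome 2 from 125152505 to 125230002, Slc12a3 on chromosome 8 from 94329201 to 94366214 and Slc9a3 on chromosome 13 from 74121457 to 74169442, all on the plus strand. Slc34a1 lies on chromosome 13 from 55398187 to 55415592, Wnk4 on chromosome 11 from 101260567 to 101277409 and Nr3c2 on chromosome 8 from 76899442 to 77245012, also on the plus strand, and Wnk1 lies on the minus strand of chromosome 6 from 119923969 to 120038672. Scnn1b shares its locus with Cog7, which lies on the other strand and had 30636 kidney reads against 39077 of Scnn1b. No source used here gives the strand setting of the counting, and reads of this overlap cannot be told apart. No other overlapping gene had more than 0.801% as many reads as the member it overlaps.

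The promoter windows of the 4 genes on which the results over the day turn are printed here, from 250 bases before to 50 bases after the RefSeq start, 5′ to 3′ on the gene's strand, so that they can be read beside the daily courses. Capitals mark CACGTG, the E-box that clock factors such as Bmal1 bind. The windows (RefSeq, GRCm38.p6) are chr13:74121163-74121462 (plus strand) for Slc9a3, chr6:120038606-120038905 (minus strand) for Wnk1, chr11:101260317-101260616 (plus strand) for Wnk4 and chr2:125152350-125152649 (plus strand) for Slc12a1.
Slc9a3: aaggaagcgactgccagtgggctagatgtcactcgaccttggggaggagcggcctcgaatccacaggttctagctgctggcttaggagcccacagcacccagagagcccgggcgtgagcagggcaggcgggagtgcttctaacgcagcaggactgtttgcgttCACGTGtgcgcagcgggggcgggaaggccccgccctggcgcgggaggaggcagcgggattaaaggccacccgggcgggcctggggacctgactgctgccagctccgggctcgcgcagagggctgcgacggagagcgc
Wnk1: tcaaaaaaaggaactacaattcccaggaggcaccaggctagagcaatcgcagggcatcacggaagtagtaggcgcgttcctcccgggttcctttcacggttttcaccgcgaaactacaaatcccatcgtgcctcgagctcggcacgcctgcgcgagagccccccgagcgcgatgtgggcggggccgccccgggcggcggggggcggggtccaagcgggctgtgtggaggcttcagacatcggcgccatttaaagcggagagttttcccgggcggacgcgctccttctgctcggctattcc
Wnk4: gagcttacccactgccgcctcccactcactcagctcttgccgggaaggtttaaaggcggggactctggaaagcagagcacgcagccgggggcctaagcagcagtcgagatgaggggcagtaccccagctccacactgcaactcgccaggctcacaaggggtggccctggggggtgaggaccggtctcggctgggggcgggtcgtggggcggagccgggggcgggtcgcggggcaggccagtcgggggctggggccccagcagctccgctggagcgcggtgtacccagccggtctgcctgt
Slc12a1: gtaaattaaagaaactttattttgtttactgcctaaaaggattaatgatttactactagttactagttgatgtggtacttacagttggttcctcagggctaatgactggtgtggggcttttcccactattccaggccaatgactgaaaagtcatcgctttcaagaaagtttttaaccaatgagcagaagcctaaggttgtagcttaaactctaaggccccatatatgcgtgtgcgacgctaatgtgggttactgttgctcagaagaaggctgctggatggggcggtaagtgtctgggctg
RefSeq windows were found for 9 of the 10 genes and were searched on both strands. CACGTG, which is its own reverse complement, occurred in 1 of the 9, Slc9a3, where it begins 87 bases before the start, and in 7.15% of the 32851 windows of all genes. The D-box TTATGNAA, which Dbp and related factors bind, occurred in none of the 9 and in 3.38% of all windows. AGGTCA, the core of the element that REV-ERB and ROR receptors bind, occurred in 1, Scnn1b, 132 bases before the start, and in 16.3% of all windows. TGTTCT, a half-site of the steroid receptors to which Nr3c2 belongs, occurred in 1, Slc34a1, 228 bases before the start, and in 19.0% of all windows. CACGTT, an E-box-like element, occurred in none of the 9 and in 4.68% of all windows. The matches lie in different promoters. A match describes letters in a window and nothing about binding. Counts are per gene and do not tell transcripts of different starts apart.

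Total counts in kidney ran from 13876000 to 22123000 per library (rounded). Some libraries stood apart in earlier results of these data. For 11 labels of genotype, time and number, 2 of flox and 9 of iKO, the liver library had a high mean of cell cycle genes (mean log2 CPM above 2, where CPM is the count scaled to the library's total). The 11 kidney libraries of the same labels are called the 11 libraries here, and they include 2 of the 3 iKO libraries at ZT6, ZT14 and ZT18, all 3 at ZT22, and number 1 of flox at ZT6 and ZT22. In kidney their 20 interferon-stimulated genes summed to 688 to 3845 CPM, against 106 to 750 CPM in the other 25. Markers of tubule segments moved too: the 9 proximal tubule markers had a median sum of 14656 CPM in the 11 and 30672 CPM in the other 25, and the 8 principal cell markers 1860 and 795 CPM. Xist was high in 2 of the 11, iKO ZT18 number 1 and iKO ZT22 number 3, although all mice are labelled male. No marker of the segment lists had a median count of 0 in kidney, whereas 6 of 8 markers of adrenal cortex did, and the adrenal list summed to 2.48 to 6.43 CPM. In bulk tissue fewer cells of a type and less RNA per cell cannot be told apart.

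Per kilobase of the deposited gene length, Slc34a1 was the highest of the 10 in kidney, with a median of 788 CPM per kilobase over 36 libraries, followed by Slc12a1 with 190. Scnn1a (41.3), Slc12a3 (34.7) and Wnk4 (31.5) came next in CPM per kilobase, and each of these 3 overlapped its neighbour in range. Scnn1b (19.2), Scnn1g (17.9) and Slc9a3 (17.0) were lower still, and Wnk1 (11.2) and Nr3c2 (2.85) were the lowest. Only the steps from Slc12a1 to Scnn1a and from Wnk1 to Nr3c2 separated the ranges over all 36 libraries, and Slc34a1 stood above Slc12a1 in 34 of 36. The deposited lengths of Wnk1 (22825 bases) and Slc12a3 (11119 bases) are long, which lowers their place in this order. Scnn1a stood at 2.02 times Scnn1b per kilobase at the median, with single libraries from 0.873 to 4.71 times, whereas Scnn1b and Scnn1g stayed close, at 1.07 times at the median and 0.766 to 1.48 times in single libraries.

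All 10 genes were higher in kidney than in liver and in WAT by edgeR's quasi-likelihood test with Benjamini-Hochberg adjustment over 22789 genes, against 36.3% of all genes higher than in liver and 27.6% higher than in WAT. The direction was known for genes of the tubule and serves as a reference. On a scale shared by the tissues, Slc34a1 ran from 818 to 5337 CPM in kidney, while it was 0 in 20 of 36 liver libraries and 21 of 36 WAT libraries and never above 11.9 CPM. Slc12a1, Scnn1b and Scnn1g were at a median of 0 CPM in liver, with 28, 30 and 31 libraries at 0. Of the regulators, Wnk1 and Nr3c2 were not confined to kidney. Wnk4 was far lower outside it, with a median of 118 CPM in kidney, 2.55 in liver and 10.7 in WAT. Wnk1, a broadly expressed kinase that senses chloride, had a median of 231 CPM in kidney, 67.2 in liver and 146 in WAT, a log2 difference of 1.45 (SE 0.11, adjusted p = 1.48e-20) against liver and 0.77 (SE 0.11, adjusted p = 1.31e-09) against WAT by the same test. Nr3c2 had a median of 16.5 CPM in kidney, 9.56 in liver and 9.19 in WAT, a log2 difference of 0.89 (SE 0.12, adjusted p = 2.12e-10) against liver.

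Scnn1a was the channel subunit found in every tissue, with a median of 154 CPM in kidney, 3.61 to 103 CPM in liver and 0.776 to 85.8 CPM in WAT. Scnn1b and Scnn1g never passed 0.275 CPM in liver or 4.49 CPM in WAT. In liver Scnn1a was lower in the libraries that carry the 11 labels, at 3.61 to 33.4 CPM with a median of 7.95, than in the other 25, at 28.9 to 103 CPM with a median of 43.0. Wnk1 in liver went the other way, at 79.9 to 272 CPM with a median of 171 in the 11 and 52.9 to 81.7 CPM with a median of 64.1 in the other 25. These 11 liver libraries were set apart by their cell cycle genes, and no test was made of the 2 sets. In WAT, markers of epididymis, a tissue next to the fat depot of that name, summed to 0.952 to 28106 CPM, and their part in the WAT level of Scnn1a was not tested.

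Averaged over the 6 times, none of the 10 genes differed between iKO and flox kidneys by edgeR's quasi-likelihood test with Benjamini-Hochberg adjustment over 17630 genes, of which 29 (0.164%) passed. The median log2 difference, iKO minus flox, was 0.09 over the 10 and -0.0024 over all genes tested. At an unadjusted p under 0.05 the test gave 1662 of all genes and 2 members, Scnn1b and Nr3c2. DESeq2 also called 0 of the 10, and 203 of all genes.

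Of the channel subunits, Scnn1b had the highest estimate, a log2 difference of 0.30 (SE 0.13, adjusted p = 0.473 by edgeR). Scnn1a stood at 0.10 (SE 0.10) and Scnn1g at 0.11 (SE 0.10). At ZT6 Scnn1b stood at 86.7, 27.3 and 38.6 CPM in flox and at 107, 103 and 34.3 CPM in iKO. The 3 high values were those of the 11 libraries, and the groups overlapped. In those 3 libraries the principal cell markers summed to 1722, 2057 and 2549 CPM, against 554 to 1019 CPM in the other 3 of that time, and the part of this in the result was not tested. Without the 11 libraries a single iKO library remains at each of ZT6, ZT14 and ZT18 and none at ZT22. The average then covers ZT2 to ZT18. Over those 5 times the difference of Scnn1b was 0.28 with all libraries and 0.07 without the 11. Nr3c2, whose product carries the aldosterone signal to channel genes, had lowest, median and highest levels of 14.8, 16.6 and 25.1 CPM in flox and 15.2, 19.5 and 26 CPM in iKO. The log2 difference was 0.14 (SE 0.07, adjusted p = 0.528 by edgeR). Over ZT2 to ZT18 it was 0.16 with all libraries and 0.04 without the 11, and Nr3c2 had medians of 22.7 CPM in the 11 and 16.9 CPM in the other 25.

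**Figure D1:**
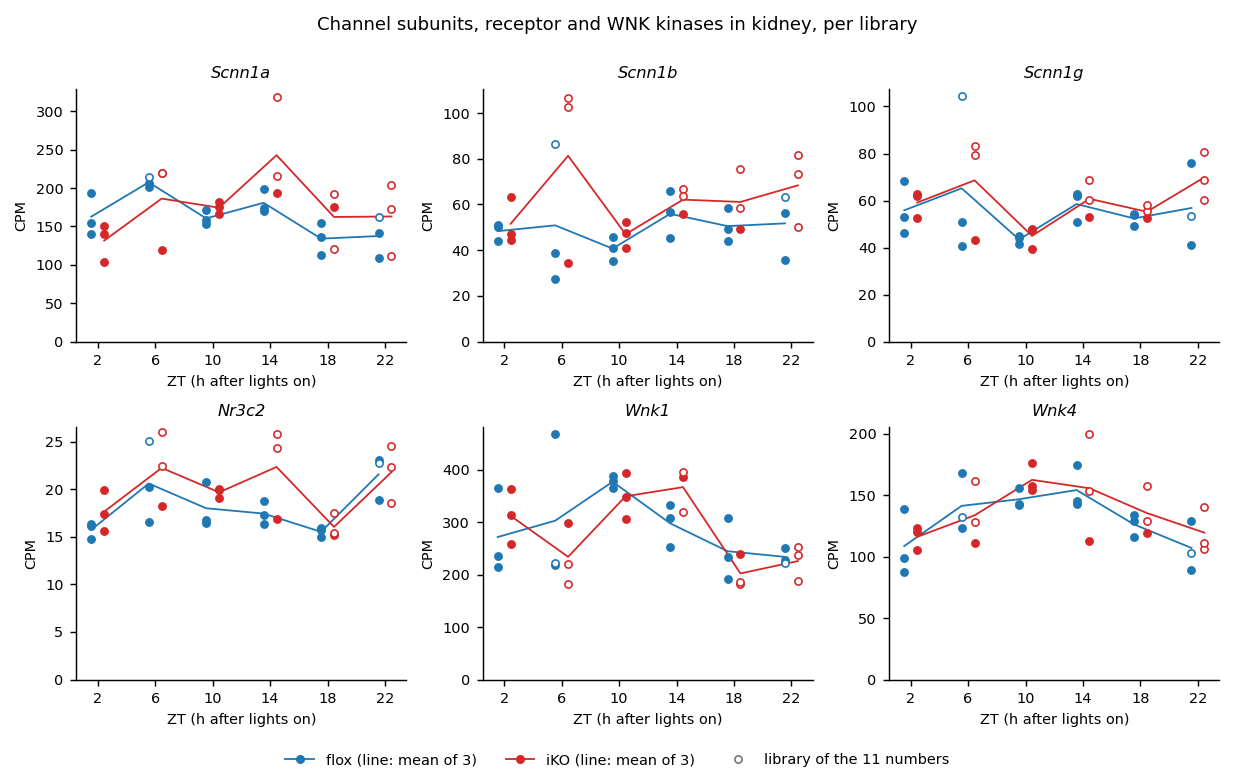
CPM of the 3 channel subunits, Nr3c2, Wnk1 and Wnk4 in each of the 36 kidney libraries (vertical axis) by ZT in hours (horizontal axis), with lines through the means of 3 libraries and open points for the 11 libraries. The open points of Scnn1b at ZT6, at 86.7, 103 and 107 CPM, lie above the filled points of that time, and Wnk4 peaks around ZT10 to ZT14 in both genotypes.

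Among the transporters, Slc34a1 had the lowest estimate, a log2 difference of -0.25 (SE 0.21, adjusted p = 0.768). At ZT18 Slc34a1 stood at 4601, 4310 and 3730 CPM in flox and at 1023, 1301 and 4084 CPM in iKO. At ZT22 it stood at 1593, 3245 and 899 CPM in flox and at 3209, 1114 and 978 CPM in iKO. Both groups held low and high libraries at ZT22, and at ZT18 the 2 low iKO libraries belong to the 11. Slc34a1 had a median of 1301 CPM in the 11 (978 to 3209) and 4310 CPM in the other 25 (899 to 6062). The library flox ZT22 number 3, which is not of the 11, had the lowest Slc34a1 level and also the highest sum of the 7 inner medulla markers, 3232 CPM, where the other kidney libraries had 605 to 2793 CPM. Slc12a1 stood at a log2 difference of 0.17 (SE 0.15), Slc9a3 at 0.06 (SE 0.13) and Slc12a3 at -0.03 (SE 0.15). Of the kinases, Wnk1 stood at -0.05 (SE 0.10) and Wnk4 at 0.07 (SE 0.08).

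**Figure D2:**
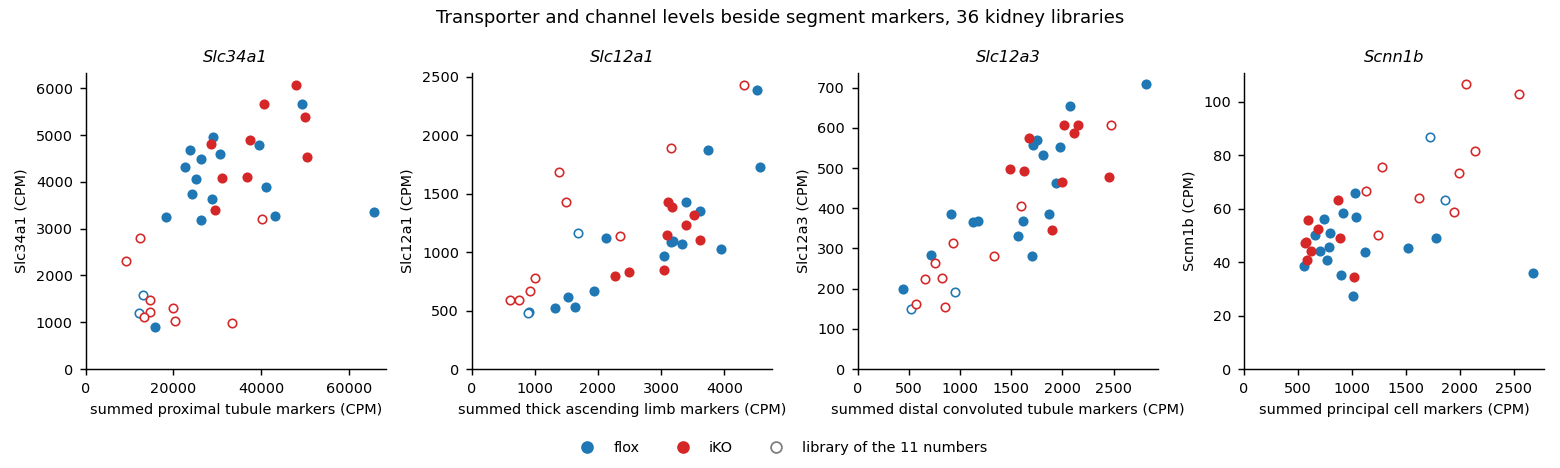
Level of a transporter or channel subunit in CPM (vertical axes) against the summed CPM of markers of the segment where it is known to act (horizontal axes), for 36 kidney libraries coloured by genotype, with open points for the 11 libraries. The open points of Slc34a1 lie between 978 and 3209 CPM, and Slc12a3 is low where the distal convoluted tubule markers are low.

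The segment markers also differed between the 2 sets of libraries. The 7 thick ascending limb markers had a median sum of 1378 CPM in the 11 libraries and 3161 CPM in the other 25, and the 7 distal convoluted tubule markers 856 and 1753 CPM. Slc12a3, the transporter of that last segment, had medians of 226 and 478 CPM in the same sets. Slc12a1, the transporter of the thick ascending limb, had medians of 1135 CPM in the 11 and 1091 CPM in the other 25. Scnn1b had medians of 73.3 and 47.0 CPM. These are descriptions of sets of libraries that hold different genotypes and times, and none was tested.

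At single times 0 of the 10 genes were called at any of the 6, by edgeR's quasi-likelihood test adjusted over all genes within each time. The share of all genes called was 0% at ZT2, ZT6, ZT10, ZT14 and ZT18 and 0.0113% (2 genes) at ZT22. The interaction of genotype and time was called for 0 members and 0% of all genes, where an unadjusted p under 0.05 gave 1 member, Slc12a1, and 1373 of all genes. DESeq2 called 55 interactions over all genes and 0 among the 10. The 3 and 3 libraries of a time did not overlap in 2 of 60 pairs of member and time, against 12.5% of the pairs of all genes tested, and both were at ZT22, with iKO higher.

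The first was Slc12a1. At ZT22 it stood at 478, 490 and 525 CPM in flox and at 1135, 1431 and 1684 CPM in iKO. The 3 iKO libraries were all above the 3 flox libraries. The log2 difference was 1.51 (SE 0.38, adjusted p = 0.201 by edgeR). DESeq2 called it at an adjusted p of 0.027, among the 67 genes that DESeq2 called at ZT22. With the replicate number as a block, edgeR's adjusted p was 0.235, and with the 6 libraries of ZT22 alone 0.89. At ZT6 the order was the other way: Slc12a1 stood at 1163, 2386 and 1724 CPM in flox and at 664, 594 and 1429 CPM in iKO, with overlap, a log2 difference of -0.97 (SE 0.38, adjusted p = 0.734 by edgeR). The 3 values of 1163, 664 and 594 CPM are those of the 11 libraries. Without them the difference at ZT6 was -0.52, with a single iKO library left. Slc12a1 ranked 96 of 17630 genes by its interaction (adjusted p = 0.628 by edgeR).

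At both times the group of higher Slc12a1 also had the higher thick ascending limb markers. At ZT22 their 7 genes summed to 891, 908 and 1323 CPM in flox and to 2355, 1492 and 1378 CPM in iKO, and at ZT6 to 1679, 4523 and 4562 CPM in flox and to 922, 613 and 3113 CPM in iKO. Within the iKO libraries of ZT22 the orders were opposite, the highest Slc12a1 level (1684 CPM) standing beside the lowest marker sum (1378 CPM). Their part in the difference of Slc12a1 was not tested. All 3 iKO libraries at ZT22 are of the 11, so that genotype and this set cannot be told apart there. Without the 2 libraries of high Xist the difference at ZT22 was 1.35 on the log2 scale (adjusted p = 0.823 by edgeR).

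The second was Slc9a3. At ZT22 it stood at 49.3, 63.5 and 35.1 CPM in flox and at 81.6, 71.6 and 73.5 CPM in iKO, so that the iKO libraries were all higher. The log2 difference was 0.62 (SE 0.31, adjusted p = 0.608 by edgeR), and the adjusted p was 0.518 by DESeq2 and ran up to 0.894 over the alternatives. At ZT6 Slc9a3 stood at 61.0, 152 and 152 CPM in flox and at 69.2, 54.7 and 143 CPM in iKO, where the 3 low values are those of the 11 libraries.

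**Figure D3:**
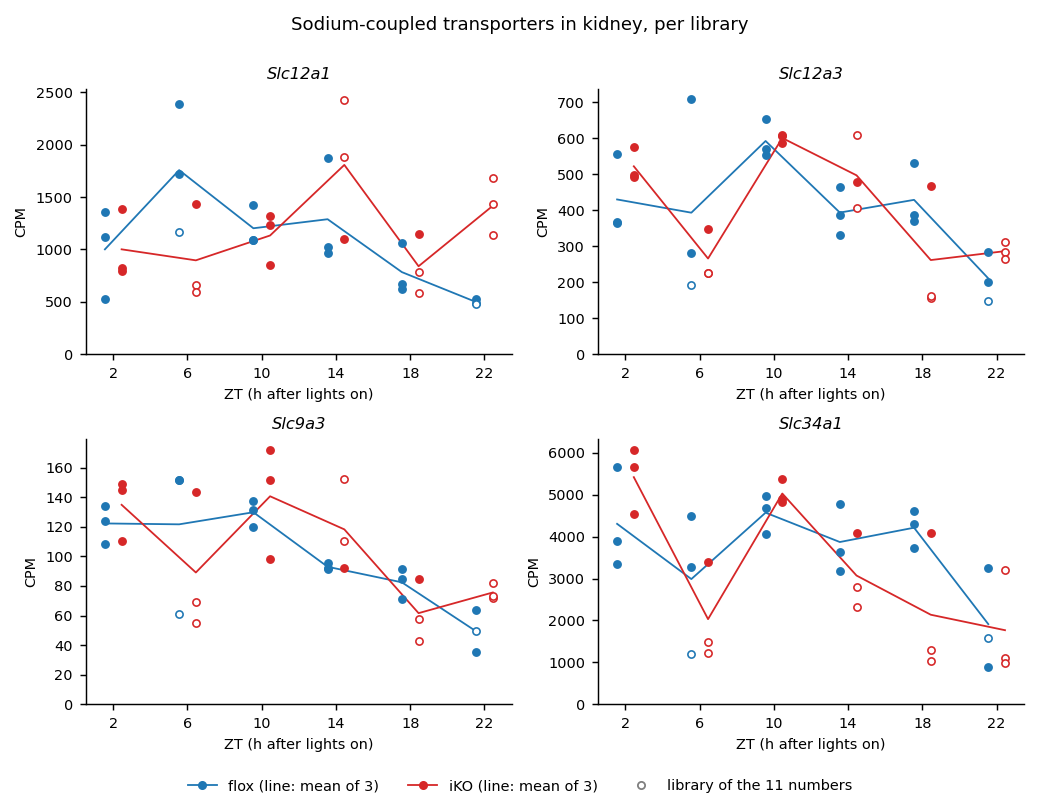
CPM of the 4 sodium-coupled transporters in each kidney library (vertical axis) by ZT in hours (horizontal axis), with lines through the means of 3 libraries and open points for the 11 libraries. At ZT22 the 3 iKO values of Slc12a1, from 1135 to 1684 CPM, lie above the 3 flox values, from 478 to 525 CPM.

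**Figure D4:**
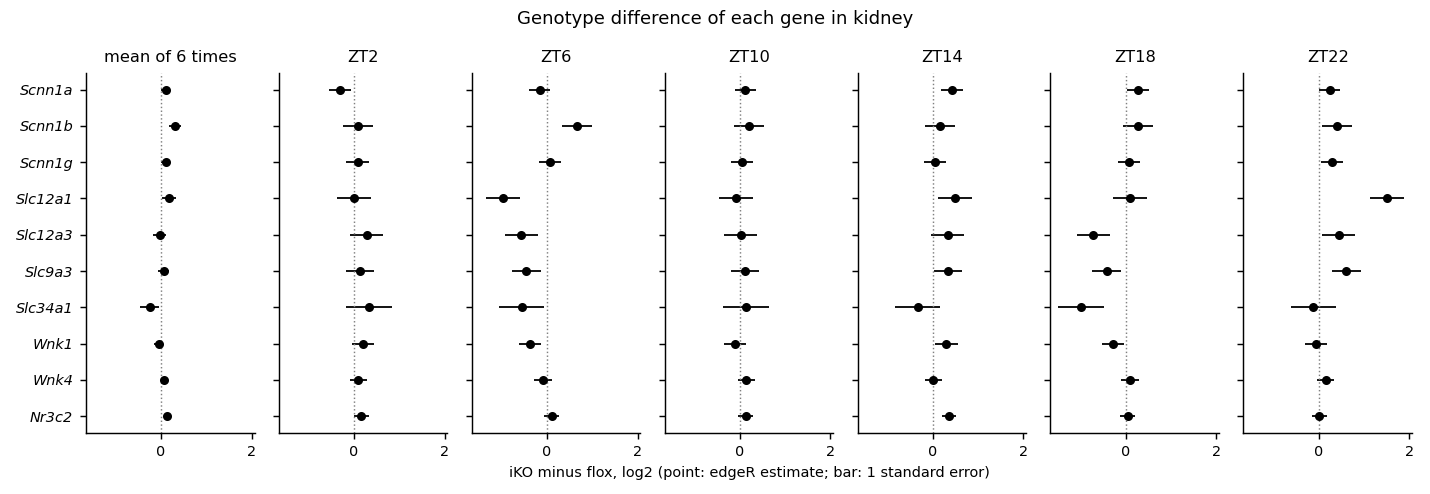
Log2 difference iKO minus flox of each gene (horizontal axis, point with 1 SE) as the mean of 6 times and at each time. Slc12a1 lies at -0.97 at ZT6 and at 1.51 at ZT22, and the means of 6 times lie between -0.25 and 0.30.

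A daily rhythm over both genotypes was called for 3 of the 10 genes, Slc9a3, Wnk1 and Wnk4, by edgeR's quasi-likelihood test of a 24 h cosine and sine with Benjamini-Hochberg adjustment over 17630 genes. The share of all genes called was 24%, so that 3 of 10 is near the background. The amplitude is the log2 height of the fitted peak above the fitted mean. Its median was 0.28 over the 10 and 0.23 over all genes tested. The 3 called genes peaked between ZT6 and ZT12, as did 26.4% of all called genes.

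Wnk4, the kinase that acts on NCC in the distal nephron, had the smallest p of the 10. Over the 6 libraries of a time its lowest, median and highest levels were 87.7, 113 and 139 CPM at ZT2 and 142, 155 and 176 CPM at ZT10. They were 113, 149 and 200 CPM at ZT14 and 89.4, 109 and 141 CPM at ZT22. All 6 libraries of ZT10 were above all 6 of ZT2 and of ZT22. How many of all genes keep these times apart was not counted, for Wnk4 or for the genes below. ZT10 holds none of the 11 libraries, whereas ZT22 holds all 3 of iKO and number 1 of flox. The amplitude of Wnk4 was 0.26 (SE 0.05), a peak-to-trough ratio of 1.44. Its peak was at ZT 11.7 h (SE 0.761 h, adjusted p = 0.00191 by edgeR). The fits of the genotypes placed the peak at 11.4 h in flox and 12.0 h in iKO.

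Wnk1 had lowest, median and highest levels of 305, 372 and 394 CPM at ZT10 and 188, 233 and 252 CPM at ZT22, again without overlap of these 2 times. At ZT6 it ranged from 182 to 467 CPM, with flox ZT6 number 3 at the top. Over all times Wnk1 had medians of 222 CPM in the 11 libraries and 307 CPM in the other 25. The amplitude was 0.30 (SE 0.08), a ratio of 1.51, with a peak at 9.66 h (SE 0.973 h, adjusted p = 0.0224 by edgeR). Without the 11 libraries the amplitude was 0.27 and the adjusted p 0.123, and over the alternatives the adjusted p ran from 0.00578 to 0.123. Summed markers of distal segments differed between the same times as Wnk1 and Wnk4. The 7 distal convoluted tubule markers had median sums of 1617 CPM at ZT2, 2046 CPM at ZT10 and 733 CPM at ZT22. The 7 thick ascending limb markers had 2383, 3290 and 1351 CPM. Of the 7 distal convoluted tubule markers 2 were called rhythmic over both genotypes, 1 with a peak between ZT6 and ZT12 and 1 after ZT12. Of the 7 thick ascending limb markers 3 were called, 1 with a peak between ZT6 and ZT12 and 2 after ZT12. The share of all genes called was 24%. The part of these markers in both rhythms was not tested.

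Slc9a3, which brings most sodium into proximal tubule cells, had lowest, median and highest levels of 98.2, 135 and 172 CPM at ZT10 and 35.1, 67.5 and 81.6 CPM at ZT22, without overlap. At ZT2 it stood at 109, 129 and 149 CPM. Over all times Slc9a3 had medians of 69.2 CPM in the 11 libraries and 111 CPM in the other 25. Its amplitude of 0.48 (SE 0.12), a ratio of 1.96, was the highest of the 10, with a peak at 7.84 h (SE 0.824 h, adjusted p = 0.00858 by edgeR). The peak was at 7.88 h in flox and 7.79 h in iKO. Of the 9 proximal tubule markers 0 were called rhythmic, and their summed level had a median of 48706 CPM at ZT2, 28811 CPM at ZT10 and 17101 CPM at ZT22. Its part in the result was not tested. Without the 11 libraries Slc9a3 was called with an amplitude of 0.51.

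**Figure D5:**
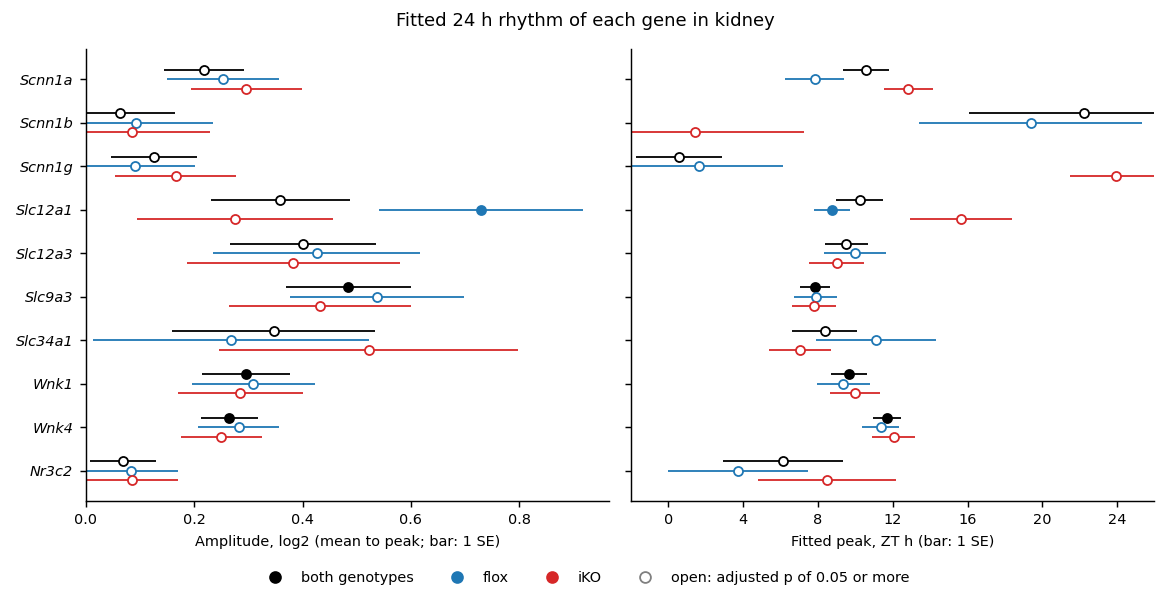
Fitted amplitude in log2 (left) and peak time in hours after lights on (right) of each gene with 1 SE, for both genotypes together and for each, with filled points where the adjusted p is under 0.05 and bars that run past the axis limits not drawn beyond them. Slc9a3, Wnk1 and Wnk4 are filled for both genotypes, and Slc12a1 for flox alone, at an amplitude of 0.73.

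Scnn1a, Slc12a3, Slc12a1 and Slc34a1 peaked in the same part of the day by their fits over both genotypes, without passing the test of that rhythm. Scnn1a, whose transcription clock proteins are known to influence, had an amplitude of 0.22 and a peak at 10.6 h (adjusted p = 0.0706). Slc12a3 had 0.40 and 9.52 h (adjusted p = 0.0706), Slc12a1 0.36 and 10.2 h (adjusted p = 0.0916) and Slc34a1 0.35 and 8.36 h (adjusted p = 0.314, all by edgeR). Scnn1b, Scnn1g and Nr3c2 had amplitudes of 0.06, 0.13 and 0.07 and adjusted p of 0.87, 0.42 and 0.627. DESeq2 also called Scnn1a (adjusted p = 0.0468) and Slc12a3 (adjusted p = 0.0399), and in all 5186 of 17630 genes. With time as a factor, which tests any difference between times, edgeR called 8 of the 10, all but Scnn1b and Scnn1g. That setting called 10105 of 17630 genes. Slc12a3 passed on leaving out flox ZT2 number 1, flox ZT6 number 1, flox ZT18 number 3, iKO ZT6 number 1 or 2, or iKO ZT18 number 3 (lowest adjusted p = 0.0318 by edgeR). Scnn1a passed without iKO ZT6 number 3 or iKO ZT22 number 1 (lowest adjusted p = 0.0356 by edgeR). At ZT10 Slc12a3 stood between 553 and 655 CPM in all 6 libraries, its narrowest range of the 6 times, whereas at ZT18 it ran from 156 to 531 CPM.

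Within flox the rhythm was called for 1 of the 10, Slc12a1, and for 5.07% of all genes. Its amplitude there was 0.73 (SE 0.19) with a peak at 8.76 h (SE 0.969 h, adjusted p = 0.0436 by edgeR). The call was lost with no filter on low counts (adjusted p = 0.0596), with the replicate block (adjusted p = 0.0515) and in 12 of the 36 fits that left out 1 library, whose adjusted p ran from 0.0334 to 0.0995. Those 12 left out flox ZT2 number 3, ZT6 numbers 2 and 3, ZT10 number 3, ZT14 numbers 1 and 3, ZT18 numbers 1 and 2, any of the 3 at ZT22, or iKO ZT22 number 1. Other settings called other members in flox. Over all genes they called 776 with the replicate block, 1722 by DESeq2 and 2185 with time as a factor. Wnk4 (adjusted p = 0.0529) passed with the replicate block (adjusted p = 0.0483) and by DESeq2 (adjusted p = 0.0195). It also passed on leaving out flox ZT2 number 1, flox ZT6 number 3, flox ZT22 number 3, iKO ZT2 number 1, iKO ZT14 number 3 or iKO ZT22 number 3. Slc9a3 (adjusted p = 0.0876) passed with time as a factor (adjusted p = 0.0282), by DESeq2 (adjusted p = 0.0413), without the 11 libraries (adjusted p = 0.0109) and without flox ZT6 number 1 alone (adjusted p = 0.0381 by edgeR). The flox libraries of Slc12a1 ran from 478 CPM at ZT22 to 2386 CPM at ZT6, and at ZT14 they stood at 970, 1871 and 1025 CPM. Within iKO none of the 10 was called, against 4.22% of all genes. With time as a factor edgeR called 4 of the 10 in iKO, Slc12a3, Slc34a1, Slc9a3 and Wnk1, and 7058 of 17630 genes. DESeq2 called Wnk4 (adjusted p = 0.0489) and 1579 of 17630 genes. Wnk4 also passed in iKO without iKO ZT14 number 3 (adjusted p = 0.0415 by edgeR). Slc12a1 had an amplitude of 0.28 there, with a peak at 15.6 h (SE 2.74 h), and its highest libraries were iKO ZT14 number 1 at 2431 CPM and number 2 at 1887 CPM, both of the 11. A change of rhythm between the genotypes was called for 0 members and 0% of all genes, at an unadjusted p under 0.05 for 1 member, Slc12a1, and 378 of all genes, and DESeq2 called 0 of all genes.

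Of 19 genes known to regulate the channel or the aldosterone response, 6 were called rhythmic over both genotypes and 0 differed between genotypes on average. Dot1l, a histone methyltransferase known to repress Scnn1a, peaked at 13.7 h with an amplitude of 0.29 (adjusted p = 0.0045 by edgeR). Usp2, a deubiquitinase known to act on the channel, had an amplitude of 0.59 and a peak at 6.96 h. Furin, the protease that cleaves channel subunits, had 0.46 and 11.1 h, and Fkbp5, a chaperone of steroid receptors, 0.70 and 11.7 h. Of 16 genes of the WNK cascade, 6 were called rhythmic and 0 differed between genotypes. Oxsr1, the kinase that WNK kinases switch on, had an amplitude of 0.27 and a peak at 10.7 h (adjusted p = 0.00141 by edgeR), close to the peak hours of Wnk1 and Wnk4. Cab39l, a partner of Stk39 and Oxsr1, peaked at 1.53 h and Ppp1r1a, an inhibitor of protein phosphatase, at 13.6 h.

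Of 19 other genes of salt transport, 7 were called rhythmic and 0 differed between genotypes. Fxyd2, a regulator of the sodium pump, had an amplitude of 0.37 and a peak at 13.7 h (adjusted p = 0.00594 by edgeR). Atp1b1, the beta subunit of the pump, peaked at 8.54 h, and Slc13a2, a sodium-coupled carrier of citrate, at 10.1 h. Of 14 genes of phosphate transport, the group of Slc34a1, 1 was called rhythmic, Pdzk1, a scaffold that binds Slc34a1, with an amplitude of 0.95 and a peak at 11.1 h. Of 18 clock genes 16 were called rhythmic, as a reference for these libraries. Dbp had an amplitude of 2.10 and a peak at 6.71 h, Per3 1.34 and 7.21 h, Arntl 1.47 and 17.8 h and Tef 0.81 and 7.29 h. Of the clock genes 1 differed between genotypes on average, Npas2, a partner of Bmal1 named here after its value was seen, which rose by 1.49 on the log2 scale in iKO (SE 0.28, adjusted p = 0.0251 by edgeR). The 18 clock genes include Arntl, and 0 of them were called lower in iKO on average. The lists are small, and each share called rhythmic stands beside the 24% of all genes.

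Over the 36 kidney libraries each gene was set beside all tested genes whose mean log2 CPM reached 1. Slc34a1 was most like Pdzd3 (Pearson r = 0.978 of log2 CPM) and Slc22a6 (0.977), and Slc12a3 was most like Sall3 (0.926) and Klhl3 (0.926). Slc9a3 was most like Lpgat1 (0.90) and Dnajc6 (0.892), Slc12a1 like Tmem72 (0.849) and Erbb4 (0.849), Wnk1 like Casr (0.897) and Pde4d (0.847) and Wnk4 like Mpp2 (0.851) and Rap1gap (0.821). Scnn1g was most like Hsd11b2 (0.873) and Scnn1b (0.834), Scnn1b like Rhcg (0.85) and Scnn1g, Scnn1a like Pacsin2 (0.777) and Nampt (0.737) and Nr3c2 like Usp42 (0.746) and Tanc1 (0.738). The genes share libraries, so that differences in tissue make-up, time and depth enter each value. Among the members, Slc12a3 ran with Wnk1 (0.826), Slc9a3 (0.815) and Slc34a1 (0.812), whereas Scnn1a ran only weakly with its partner subunits Scnn1b (0.29) and Scnn1g (0.328).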

How the data were processed

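Total RNA of kidney, liver and WAT was sequenced (108 libraries, reads of 150 bases), and the authors deposited 1 table of read counts per gene. HISAT2 2.0.4, featureCounts 1.5.0-p3, DESeq2 1.16.1 and GRCm38 are named in the submitters' processing notes. The deposited gene starts matched GRCm38 for 0 of the 10 genes, so positions were taken by gene identifier from GENCODE M21. Groups came from the labels, and 1492 genes without a symbol were kept.

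Counts were filtered (filterByExpr), scaled by TMM and tested with edgeR 4.0.16 (limma 3.58.1, R 4.3.3) over 36 kidney libraries in 12 groups, or over 108 libraries for tissues, with Benjamini-Hochberg adjustment over all genes and a threshold of 0.05. CPM used TMM scaling, and log2 CPM a prior count of 2. Rhythm was a 24 h cosine and sine for each genotype. The alternatives were DESeq2 1.42.0, its size factors, no filter, a replicate block, time as a factor, single times alone, the average without ZT22 (added after seeing the data) and libraries left out. Tables and figures used Python 3.11.15, pandas 2.3.3, numpy 2.4.6 and matplotlib 3.10.9.

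The 10 genes and all gene lists were chosen with earlier results of these data known. Named were the 10, up to 4 called genes of each pathway list with the smallest p, and the 2 most similar genes of each member, passing over predicted genes and pseudogenes. Some genes that this rule names are not reported here. Replicates were distinct (lowest chi-square per degree of freedom 11.4 over 108 pairs). Same-numbered libraries of different kidney groups had correlations of deviations from -0.721 to 0.788 (median -0.0347). The numbers thus did not pair samples across kidney groups. Kidney and liver libraries with one label had a median correlation of 0.172 (-0.201 to 0.366), and kidney and WAT libraries 0.0817 (-0.0973 to 0.236). Xist was high in both liver and kidney for iKO ZT18 number 1 and iKO ZT22 number 3 alone. Whether tissues with one label came from the same mouse was not tested, and the main tissue test did not pair them. On simulated kidney counts, changes of 2-fold and 4-fold were recovered in 85% and 99% for the average and 18% and 74% at ZT22. The interaction test recovered the changes at ZT22 in 6% and 54%. As peak-to-trough ratios, recovery was 69% and 94% for the rhythm over both genotypes, 39% and 82% in flox and 34% and 85% in iKO. For a rhythm in iKO alone, the change of rhythm was recovered in 12% and 65%. The simulated libraries held no set like the 11 libraries, and each gene was given the spread of the trend over level, not its own. In the data the SE at ZT22 ran from 0.16 for Nr3c2 to 0.50 for Slc34a1, so these shares do not hold for single members.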

Additional observations from a re-analysis of the deposited data

How the results depend on the processing

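The 10 genes stayed higher in kidney than in both other tissues, and Slc9a3 and Wnk4 kept their rhythm over both genotypes, under every alternative run. Counts over all kidney genes moved more. Without the 11 libraries a single iKO library remains at each of ZT6, ZT14 and ZT18 and none at ZT22. Genotype comparisons without the 11 thus cover the 5 times ZT2 to ZT18. An average over those times with all libraries was added after seeing the data. The genotype average gave 29 genes, against 10 without ZT22, 77 without the 11 libraries and so also without ZT22, 17 without the 2 of high Xist, 203 by DESeq2 and 6 (without flox ZT6 number 3) to 125 (without flox ZT6 number 1) on leaving out 1 library. Single times gave 2, against 1 with the replicate block, 0 without ZT22, 17 without the 11, 1 without high Xist, 5 with 6 libraries alone, 220 by DESeq2 and 0 (without flox ZT22 number 3) to 465 (without iKO ZT18 number 3). The interaction gave 0, against 4 without the 11, 55 by DESeq2 and 0 to 2 (without flox ZT22 number 2). The change of rhythm gave 0, against 3 without the 11. Rhythm over both genotypes gave 4227, against 2335 without the 11, 10105 with time as a factor and 3477 to 5486 on leaving out 1 library. Rhythm in flox gave 894, against 473 with no filter, 1579 without the 11, 2185 with time as a factor, 1722 by DESeq2 and 346 (without flox ZT2 number 3) to 1185 (without iKO ZT2 number 1). Rhythm in iKO gave 744, against 417, 31, 7058 and 1579 in that order, 170 without high Xist, and 170 (without iKO ZT10 number 1) to 1601 (without iKO ZT2 number 1).

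The replicate block gave 29 genes for the average, 4001, 776 and 625 for rhythm over both genotypes, in flox and in iKO, and 15278 and 15807 for kidney against liver and WAT, the last pair with the dispersion trend of the fit of group means. Without ZT22 but with all libraries, the average difference, none called, changed sign for Slc12a1 (-0.094) and Slc9a3 (-0.0533). Without the 11 libraries and ZT22 it differed in sign from the 6-time average for Scnn1a (-0.0935), Scnn1g (-0.0155), Slc12a1 (-0.0548), Slc12a3 (0.0413), Slc34a1 (0.0652), Wnk1 (0.0488) and Wnk4 (-0.132), and without high Xist for Slc12a3 (0.0227). On leaving out 1 library it ran from -0.146 to 0.0963 for Slc12a3, -0.0223 to 0.107 for Slc9a3 and -0.0827 to 0.032 for Wnk1. The cause was not tested. The 3 libraries of a group limit what single times can show.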
